A study of Rattus norvegicus with 29 samples.

Results

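Plasma miRNAs of 9 rats that developed epilepsy after traumatic brain injury (TBI+) were compared with those of 10 sham-operated experimental controls, which were all the rats of both groups among the 29 rats measured. Every miRNA was compared, with the study site as a covariate. All rats were adult male Sprague-Dawley rats, and blood was drawn from the tail vein into EDTA 48 h after surgery. Severe TBI was induced by lateral fluid-percussion injury, a fluid pulse that strikes the exposed dura on 1 side of the skull, under isoflurane. Sham-operated rats had the anesthesia and the surgery but no impact. Epilepsy was diagnosed months after the blood draw by video-EEG, and the 10 injured rats without it (TBI−) stayed in the model as the third group. UEF (University of Eastern Finland) gave 4 sham, 4 TBI− and 4 TBI+ rats, Monash (Monash University) 3, 3 and 2, and UCLA 3, 3 and 3. Small RNA of each rat's plasma was sequenced as 1 library, so each rat was 1 replicate. At 48 h the TBI+ label marks rats whose epilepsy came later, and the sham rats differ from them both by the injury and by the later epilepsy.

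miRNAs are short RNAs that guide repressor proteins to mRNAs, mainly through the seed (bases 2 to 8). Many leave cells in vesicles or protein complexes and are stable in plasma, so miRNAs made mostly in 1 tissue are used as blood markers of injury to that tissue. In plasma, more cells releasing a miRNA and more miRNA released per cell cannot be told apart.

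4 miRNAs passed the threshold in TBI+ against sham. miR-323-3p and miR-434-3p belong to the imprinted Dlk1-Dio3 cluster, a long run of miRNA genes that is expressed from the maternal allele and is active in brain. miR-129-5p is enriched in neurons and represses the mRNA of a voltage-gated potassium channel. miR-615 lies in an intron of Hoxc5, within the Hoxc gene cluster. Their mature sequences are shown because the comparison turns on them, 5′ to 3′ from RefSeq (GRCr8), with the seed in capitals.
miR-323-3p: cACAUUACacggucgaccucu
miR-434-3p: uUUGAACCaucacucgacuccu
miR-129-5p: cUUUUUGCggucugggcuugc
miR-615: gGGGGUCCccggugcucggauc
The 4 seeds differ, and none is shared with another miRNA among the 680 of 754 names that matched a RefSeq sequence. miR-434-3p (chr6:134330451-134330472, plus strand) and miR-323-3p (chr6:134546994-134547014, plus strand) lie on the same strand with 216521 bases between them. miR-129-5p is made from 2 loci, Mir129-2 at chr3:100657448-100657468 (minus strand) and Mir129-1 at chr4:58589716-58589736 (plus strand), and its count does not tell them apart. miR-615 lies at chr7:136030369-136030390 on the plus strand.

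The table held counts of 754 miRNAs, and the total per rat ranged from 1162307 to 5223469. miR-16-5p, a red cell miRNA, took on average 16.8% of the counts, miR-486, another red cell miRNA, 12.9%, and miR-122-5p, the main miRNA of hepatocytes, 10.8%, while miR-124-3p, a neuronal miRNA, took 0.00120% to 0.00940%. 3 features of the libraries touch the results and are given first. The library UEF sham 3 had 55.1% of its counts in miR-122-5p and a TMM factor of 0.333. The library labelled UCLA TBI+ 1 went against the label of its site: it held 110.4 CPM of miR-503-3p against 1136 to 2551 CPM in the 8 other UCLA rats and 106.8 to 495.2 CPM in the 20 rats of the other sites, and 64.8 CPM of miR-455-5p against 440.4 to 1071 CPM in the 8 and 89.1 to 344.1 CPM in the 20. These miRNAs were chosen after their values were seen. The third feature concerned 9 libraries, those of all 3 Monash sham, all 3 Monash TBI− and all 3 UCLA TBI+ rats. They were set apart after the values were seen, and they hold 9 neighbouring places in the table (15 to 23). In them 21 of 754 miRNAs (2.79%) were below every one of the other 20 libraries, and 0 were above. At Monash the sham rats and at UCLA the TBI+ rats are thus among these libraries, and only UEF has sham and TBI+ rats without them, so at Monash and UCLA the condition and this feature cannot be told apart. The labels name no batch.

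Depth and coverage were compared between TBI+ and sham rats by exact permutation of the labels within sites (two-sided, 14000 relabelings). The total count was 1162307 to 5223469 in the sham rats (median 2225678) and 1320300 to 3976506 in TBI+ rats (median 2949460), a difference within sites of 140831 (exact p = 0.758). Sham rats had 658 to 737 miRNAs with at least 10 counts and TBI+ rats 688 to 740 (difference 10.9, exact p = 0.378). The log2 ratio of miR-451-5p to miR-23a-3p, a hemolysis measure in which red cell miR-451 is set against a miRNA that red cell lysis does not change much, was −3.57 to −1.33 in the sham rats and −3.05 to −1.53 in TBI+ rats. The difference was 0.61 (exact p = 0.0566), with 0.72 (UEF), −0.06 (Monash) and 1.006 (UCLA). A model with this ratio is given beside the results below.

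Of the 751 miRNAs tested, 3 rose and 1 fell in TBI+ against sham (edgeR quasi-likelihood F test, Benjamini-Hochberg adjusted p below 0.05), or 0.399% and 0.133%, together 0.533%. The 3 that rose were miR-323-3p, miR-434-3p and miR-129-5p, each by over 1 on the log2 scale, and miR-615 fell. The median log2 fold change of all 751 was 0.02, and 725 of them (96.5%) lay within 1 on either side of 0. At an unadjusted p below 0.05, 30 miRNAs (3.99%) were higher and 27 (3.6%) were lower. In no miRNA did the 9 TBI+ rats lie wholly outside the range of the 10 sham rats (0%). Within UEF 45 miRNAs (5.99%) did not overlap, within Monash 271 (36.1%) and within UCLA 268 (35.7%). The sites differ in group size, and at Monash and UCLA one of the groups compared is among the 9 libraries. The part of either was not tested.

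**Figure D1:**
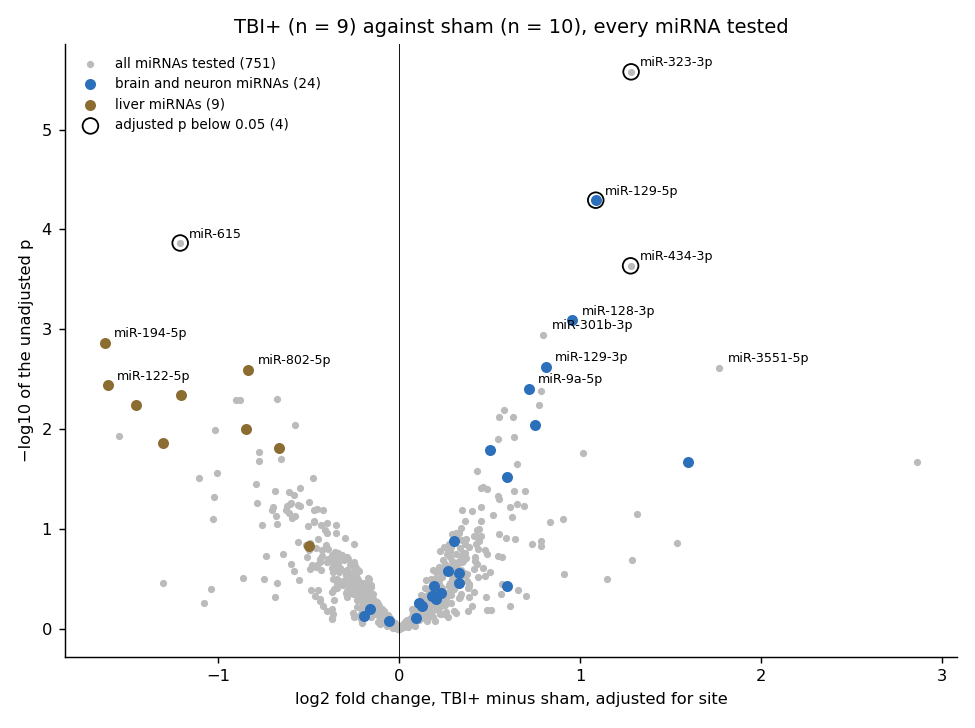
The log2 fold change of TBI+ minus sham (x axis) is plotted against the unadjusted p on a −log10 scale (y axis) for the 751 miRNAs tested, with 24 brain and neuron miRNAs in blue, 9 liver miRNAs in brown and circles around the 4 past the adjusted threshold. miR-323-3p stands highest with a log2 fold change of 1.28, and all 9 liver miRNAs lie left of 0.

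miR-323-3p was 10.3, 17.6 and 22.1 CPM (lowest, median, highest) in the 10 sham rats and 17.6, 36.3 and 91.3 CPM in the 9 TBI+ rats, with CPM as counts scaled to the TMM-adjusted library total. 8 of 9 TBI+ rats were above the highest sham rat, and the ninth, Monash TBI+ 2, lay within the sham range. The log2 fold change was 1.28 ± 0.22 (SE, adjusted p = 0.00199). At UEF the 4 sham rats had 22.1, 15.5, 18.4 and 10.3 CPM and the 4 TBI+ rats 35.2, 91.3, 47.5 and 66.1 CPM. Every UEF TBI+ rat was above every UEF sham rat. At UCLA the sham rats had 10.4, 14.3 and 18.1 CPM and the TBI+ rats 37.8, 26.3 and 31.3 CPM, again without overlap. Of all miRNAs, 5.99% did not overlap at UEF and 35.7% at UCLA, where the TBI+ rats are among the 9 libraries. At Monash the sham rats had 22.1, 17.1 and 21.1 CPM and the TBI+ rats 36.3 and 17.6 CPM, which overlapped. The fold change was 1.86 ± 0.31 (SE) at UEF (adjusted p = 0.000782), 0.41 ± 0.40 at Monash (adjusted p = 0.651) and 1.15 ± 0.36 at UCLA (adjusted p = 0.0384), and a difference between sites was not called (interaction adjusted p = 0.112).

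miR-434-3p, the other member of the Dlk1-Dio3 cluster that rose, was 51.1, 101.8 and 248.8 CPM (lowest, median, highest) in sham and 126.1, 218.1 and 734.0 CPM in TBI+ rats. 4 of 9 TBI+ rats were above the highest sham rat, and 7 of 10 sham rats were below the lowest TBI+ rat. Over all sites the log2 fold change was 1.28 ± 0.31 (SE, adjusted p = 0.0435). UEF sham rats had 91.7, 54.9, 51.1 and 106.8 CPM and UEF TBI+ rats 211.9, 734.0, 338.2 and 276.3 CPM, without overlap. UCLA sham rats had 102.9, 100.8 and 166.4 CPM and UCLA TBI+ rats 201.5, 194.1 and 218.1 CPM, also without overlap. Of all miRNAs, 5.99% did not overlap at UEF and 35.7% at UCLA. Monash sham rats had 161.7, 81.3 and 248.8 CPM and Monash TBI+ rats 304.9 and 126.1 CPM, which overlapped. The fold change differed between sites (interaction adjusted p = 0.0494), with 2.35 ± 0.41 (SE) at UEF (adjusted p = 0.000782), 0.40 ± 0.50 at Monash (adjusted p = 0.739) and 0.73 ± 0.45 at UCLA (adjusted p = 0.309).

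miR-129-5p was 17.5, 34.3 and 58.0 CPM (lowest, median, highest) in sham and 38.6, 71.9 and 179.2 CPM in TBI+ rats. 6 of 9 TBI+ rats were above the highest sham rat. Over all sites the log2 fold change was 1.09 ± 0.23 (SE, adjusted p = 0.0191). UEF sham rats had 34.97, 27.7, 21.3 and 45.6 CPM and UEF TBI+ rats 72.1, 179.2, 95.2 and 98.7 CPM. Monash sham rats had 23.2, 17.5 and 40.7 CPM and Monash TBI+ rats 60.9 and 48.6 CPM, so neither site overlapped. Of all miRNAs, 5.99% did not overlap at UEF and 36.1% at Monash, where the sham rats are among the 9 libraries. UCLA sham rats had 33.7, 58.0 and 43.9 CPM and UCLA TBI+ rats 47.0, 71.9 and 38.6 CPM, which overlapped. By site the fold change was 1.78 ± 0.31 (SE) at UEF (adjusted p = 0.000782), 1.03 ± 0.40 at Monash (adjusted p = 0.150) and 0.22 ± 0.35 at UCLA (adjusted p = 0.734), with an interaction adjusted p of 0.0540. The other arm of the hairpin, miR-129-3p, was higher by 0.81 ± 0.24 (SE) and did not pass the threshold (adjusted p = 0.190). It was 6.0, 11.5 and 20.5 CPM in sham and 11.9, 18.9 and 36.4 CPM in TBI+ rats, with 4 of 9 above the highest sham rat.

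miR-615 was 23.3, 47.1 and 106.2 CPM (lowest, median, highest) in sham and 11.6, 21.6 and 49.8 CPM in TBI+ rats. 5 of 9 TBI+ rats were below the lowest sham rat. The log2 fold change was −1.21 ± 0.28 (SE, adjusted p = 0.0342). UEF sham rats had 48.9, 106.2, 94.8 and 79.3 CPM and UEF TBI+ rats 28.4, 16.5, 20.2 and 27.7 CPM. UCLA sham rats had 23.3, 36.1 and 30.96 CPM and UCLA TBI+ rats 11.6, 21.6 and 12.9 CPM, and neither site overlapped. Of all miRNAs, 5.99% did not overlap at UEF and 35.7% at UCLA. Monash sham rats had 45.3, 30.5 and 77.2 CPM and Monash TBI+ rats 49.8 and 24.3 CPM, which overlapped. By site the fold change was −1.83 ± 0.41 (SE) at UEF (adjusted p = 0.00618), −0.46 ± 0.52 at Monash (adjusted p = 0.707) and −0.98 ± 0.48 at UCLA (adjusted p = 0.194), and the interaction adjusted p was 0.252. miR-615 was the only 1 of 11 tested Hox-embedded miRNAs past the threshold. The list had a median log2 fold change of 0.10 (0.01 without UEF sham 3) and 1 member below an unadjusted p of 0.05, miR-615 itself. Its abundant members miR-10a-5p (−0.27 ± 0.31, SE) and miR-10b-5p (0.20 ± 0.33) did not pass.

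**Figure D2:**
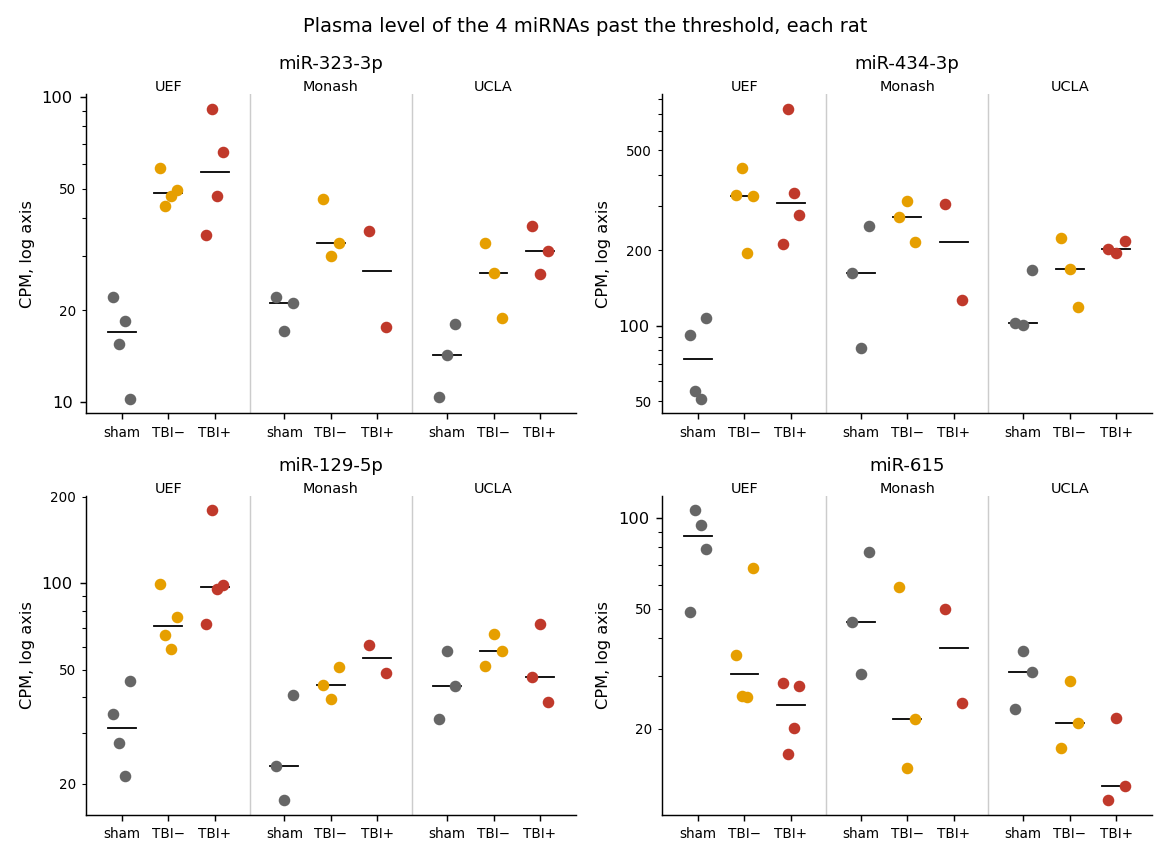
CPM of miR-323-3p, miR-434-3p, miR-129-5p and miR-615 (log axis) is plotted for each rat by site and condition, with points for rats and bars for the group median. The UEF TBI+ rats do not overlap the UEF sham rats in any of the 4 panels, the Monash groups overlap in 3 panels, and the UCLA groups overlap for miR-129-5p. Of all miRNAs, 5.99% did not overlap at UEF, 36.1% at Monash and 35.7% at UCLA. The Monash sham and UCLA TBI+ rats are among the 9 libraries.

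The 4 calls rested on these libraries to different degrees. miR-323-3p passed when each of the 19 TBI+ and sham rats was left out in turn (adjusted p up to 0.00767). miR-129-5p passed in 15 of the 19, and was lost without UEF sham 1, 2 or 3 or UEF TBI+ 2 (adjusted p 0.0559 to 0.0921). miR-615 passed in 6 of the 19 (adjusted p up to 0.129), namely without Monash sham 1, Monash sham 2, Monash TBI+ 1, UCLA sham 1, UCLA sham 3 or UCLA TBI+ 2. miR-434-3p also passed in 6 of the 19 (adjusted p up to 0.124), namely without UEF TBI+ 1, Monash sham 2, Monash sham 3, Monash TBI+ 2, UCLA sham 3 or UCLA TBI+ 2. The number called was thus 1 without UEF sham 1, UEF sham 2, UEF sham 3 or UEF TBI+ 2, and 2 without UEF sham 4, UEF TBI+ 3, UEF TBI+ 4, UCLA sham 2, UCLA TBI+ 1 or UCLA TBI+ 3, against 7 without Monash sham 2. With the 12 UEF rats left out 0 were called by edgeR (23 at an unadjusted p below 0.05), and the fold changes were 0.83 for miR-323-3p, 0.58 for miR-434-3p, 0.57 for miR-129-5p and −0.76 for miR-615.

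The calls were recomputed without the 9 libraries. With these left out, 6 miRNAs passed, and all 4 remained, with log2 fold changes of 1.60 for miR-323-3p, 1.93 for miR-434-3p, 1.53 for miR-129-5p and −1.82 for miR-615. UEF is then the only site with both sham and TBI+ rats. Monash keeps 2 TBI+ rats and no other, which add nothing to the fold change under the site term, and the UCLA sham rats enter only through the UCLA TBI− rats. These values are thus mainly the contrast within UEF, where the fold changes of the 4 were largest. With a term for the 9 libraries the fold changes were 1.24, 1.26, 1.12 and −1.20, and miR-434-3p no longer passed (adjusted p = 0.0581). With the hemolysis ratio in the model miR-323-3p (1.35), miR-434-3p (1.37) and miR-129-5p (1.27) passed, while miR-615 was lower by 0.89 on the log2 scale and did not pass (adjusted p = 0.331). Other settings ended calls too. miR-434-3p did not pass with RLE size factors (adjusted p = 0.0561), with only miRNAs of at least 10 counts in every rat (0.0704) or with the 19 TBI+ and sham rats alone (0.140). miR-129-5p did not pass with the 19 rats (adjusted p = 0.115), and miR-615 did not without a site term (adjusted p = 0.0843). The fits with a term for the 9 libraries or without them were chosen after the data were seen.

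DESeq2 called 12 miRNAs, 6 higher and 6 lower, and these included the 4 that edgeR called. Its 8 others were miR-128-3p, miR-301b-3p and miR-129-3p, which were higher, and miR-194-5p, miR-122-5p, miR-3591, miR-802-5p and miR-192-5p, which were lower. In edgeR none of the 8 passed, with adjusted p from 0.121 to 0.229. Scaled to miR-28-3p, the study's reference miRNA, 0 passed in edgeR (62 at an unadjusted p below 0.05), and the median of all miRNAs moved to 0.14. miR-28-3p itself was 312.3, 444.4 and 1462 CPM in sham and 259.4, 462.1 and 617.8 CPM in TBI+ rats, and its highest value belonged to UEF sham 3.

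The comparison was set beside those with TBI− rats, which share the TBI+ or the sham rats with it and are not independent. In TBI+ against TBI−, 0 of 751 miRNAs passed in edgeR (0%) and 0 in DESeq2, with 18 and 22 at an unadjusted p below 0.05. In TBI− against sham, 1 passed in edgeR (0.133%) and 20 in DESeq2, with 71 and 85 at an unadjusted p below 0.05. The 1 was miR-323-3p, at 1.14 ± 0.22 (SE, adjusted p = 0.00708) for TBI− minus sham and 0.14 ± 0.21 for TBI+ minus TBI−. miR-434-3p was at 1.10 ± 0.30 for TBI− minus sham (adjusted p = 0.145) and 0.18 ± 0.30 for TBI+ minus TBI−. miR-129-5p was at 0.78 ± 0.22 for TBI− minus sham (adjusted p = 0.187) and 0.30 ± 0.23 for TBI+ minus TBI−. miR-615 was at −0.79 ± 0.26 for TBI− minus sham (adjusted p = 0.231) and −0.42 ± 0.27 for TBI+ minus TBI−. In each of the 4 the TBI− median lay on the TBI+ side of the sham median, at 38.6 CPM for miR-323-3p, 246.7 CPM for miR-434-3p, 58.4 CPM for miR-129-5p and 25.5 CPM for miR-615. The lowest p in TBI+ against TBI− belonged to miR-675-3p, a product of the imprinted H19 transcript (−1.55 ± 0.56, SE), miR-582-3p (0.63 ± 0.25) and miR-452-5p (−0.73 ± 0.30), each with an adjusted p of 0.998. Single rats carried much of these values. Monash TBI− 2 had 501.2 CPM of miR-675-3p against 6.66 to 39.5 CPM in the other 28 rats, and without it the fold change of miR-675-3p, TBI+ against TBI-, was −0.57. Without Monash TBI+ 1 (805.2 CPM) that of miR-582-3p, TBI+ against TBI-, was 0.24, and without UCLA TBI− 3 (62.2 CPM) that of miR-452-5p, TBI+ against TBI-, was −0.43.

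The miRNAs next in order of p in TBI+ against sham did not pass. miR-128-3p, a neuronal miRNA that limits excitability, was 2181, 3918 and 8510 CPM in sham and 3593, 8139 and 15331 CPM in TBI+ rats (lowest, median, highest), a log2 fold change of 0.96 ± 0.26 (SE, adjusted p = 0.121). Its TBI+ rats overlapped the sham rats at Monash. They were above all sham rats within UEF and within UCLA, where 5.99% and 35.7% of all miRNAs did not overlap. miR-128-3p was at 1.02 ± 0.25 in TBI− minus sham. miR-301b-3p, which shares its seed with miR-130a-3p and miR-130b-3p, was 5.69, 12.3 and 19.98 CPM in sham and 15.7, 20.3 and 31.8 CPM in TBI+ rats (0.79 ± 0.22, SE, adjusted p = 0.142). miR-3551-5p was 4.28, 7.76 and 14.4 CPM in sham and 6.76, 10.0 and 206.9 CPM in TBI+ rats (1.77 ± 0.54, adjusted p = 0.190), and 1 rat, Monash TBI+ 2, held the highest value. miR-9a-5p, which acts in neural progenitors, was 22.8, 47.8 and 109.0 CPM in sham and 41.5, 84.5 and 110.4 CPM in TBI+ rats (0.72 ± 0.23, adjusted p = 0.225). miR-194-5p, miR-802-5p and miR-122-5p are given with the liver miRNAs.

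Brain and neuron miRNAs (the miR-9, miR-124, miR-128, miR-129, miR-137, miR-138, miR-153, miR-383, miR-488 and miR-873 families, 24 miRNAs) held 1 that rose, miR-129-5p. Besides it, 7 were higher at an unadjusted p below 0.05 and 0 were lower, against 3.99% and 3.6% of all miRNAs. The 7 were miR-124-3p (0.50 ± 0.20, SE), miR-128-3p (0.96 ± 0.26), miR-129-3p (0.81 ± 0.24), miR-153-5p (1.60 ± 0.66), miR-383-5p (0.75 ± 0.27), miR-9a-3p (0.60 ± 0.26) and miR-9a-5p (0.72 ± 0.23), and no one of these passed the adjusted threshold in edgeR with all rats. Under other settings miR-129-3p passed with the hemolysis ratio, miR-9a-3p without the 9 libraries and miR-128-3p without Monash sham 2. Without the Monash rats miR-128-3p and miR-9a-5p passed, and without the UEF rats none did. 21 of the 24 had a positive log2 fold change, and the list's median was 0.29 against 0.02 over all miRNAs. In TBI− minus sham, which shares the sham rats, the median was 0.17 against 0.03 over all. By site the list's median of TBI+ minus sham was 0.34 (UEF), 0.73 (Monash) and 0.24 (UCLA). The Monash sham and UCLA TBI+ rats are among the 9 libraries. Its member miR-137-3p was at most 57.8 CPM in these 9 and at least 95.4 CPM in the other 20. 5 of the 24 were past the threshold for a difference between sites, against 16% of all miRNAs. With the UEF rats left out 1 member was higher at an unadjusted p below 0.05, with the 9 libraries left out 6, and with the hemolysis ratio in the model, a term for the 9 libraries, or without UEF sham 3, Monash sham 2 or UCLA TBI+ 1 it was 8. The most abundant members after miR-128-3p did not pass, with miR-137-3p at 0.33 ± 0.35 and miR-138-5p at 0.11 ± 0.18. miR-124-3p was 16.2, 30.5 and 53.2 CPM in sham and 30.1, 39.5 and 69.5 CPM in TBI+ rats.

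Other lists tied to the nervous system held 0 called miRNAs. miR-132 and miR-212, which neuronal activity induces, had 4 members with a median of −0.03, among them miR-132-3p at 0.40 ± 0.21 (SE, adjusted p = 0.638) and miR-212-3p at −0.27 ± 0.24. Oligodendrocyte miRNAs (miR-219 and miR-338, 6 members) had a median of −0.05, with miR-338-3p at −0.07 ± 0.19, and choroid plexus miRNAs (miR-204 and miR-211, 4 members) a median of −0.01, with miR-204-5p at −0.75 ± 0.43. The sensory cluster of miR-183, miR-96 and miR-182 had 5 members with a median of 0.38. The median was 0.60 without UEF sham 3, where only 4 members were tested, and −0.18 without the 9 libraries. With all rats 1 member was at an unadjusted p below 0.05. That member was miR-183-5p, which was 119.2, 246.0 and 658.8 CPM in sham and 177.3, 441.0 and 1401 CPM in TBI+ rats. Its log2 fold change was 1.02 ± 0.40 (adjusted p = 0.368), with 0.20 (UEF), 1.86 (Monash) and 1.27 (UCLA). Without the 9 libraries it was −0.01. The other arm, miR-183-3p, was at 0.38 ± 0.44 (adjusted p = 0.877).

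The list for the imprinted Dlk1-Dio3 cluster had 86 tested members, of which 2 rose, miR-323-3p and miR-434-3p, and 0 fell. It was made by miRNA name and does not hold every miRNA of the stretch, as miR-1193-3p is not on it. 1 further member, miR-485-5p, was higher at an unadjusted p below 0.05 (0.45 ± 0.21, SE, adjusted p = 0.587). The median log2 fold change of the cluster was 0.11, with 56 positive and 30 negative. By site it was 0.23 (UEF), 0.03 (Monash) and −0.42 (UCLA). It was 0.07 without UEF sham 3 and 0.19 without UCLA TBI+ 1, and without the UEF rats it was −0.05, with 46 of 84 negative. The partner arm miR-323-5p, at 0.14 ± 0.27, did not pass. miR-379-3p (0.69 ± 0.35) and miR-411-5p (0.15 ± 0.31), the most abundant of the rest, did not pass either. 15 of the 86 members were past the threshold for a difference between sites, against 16% of all miRNAs.

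**Figure D3:**
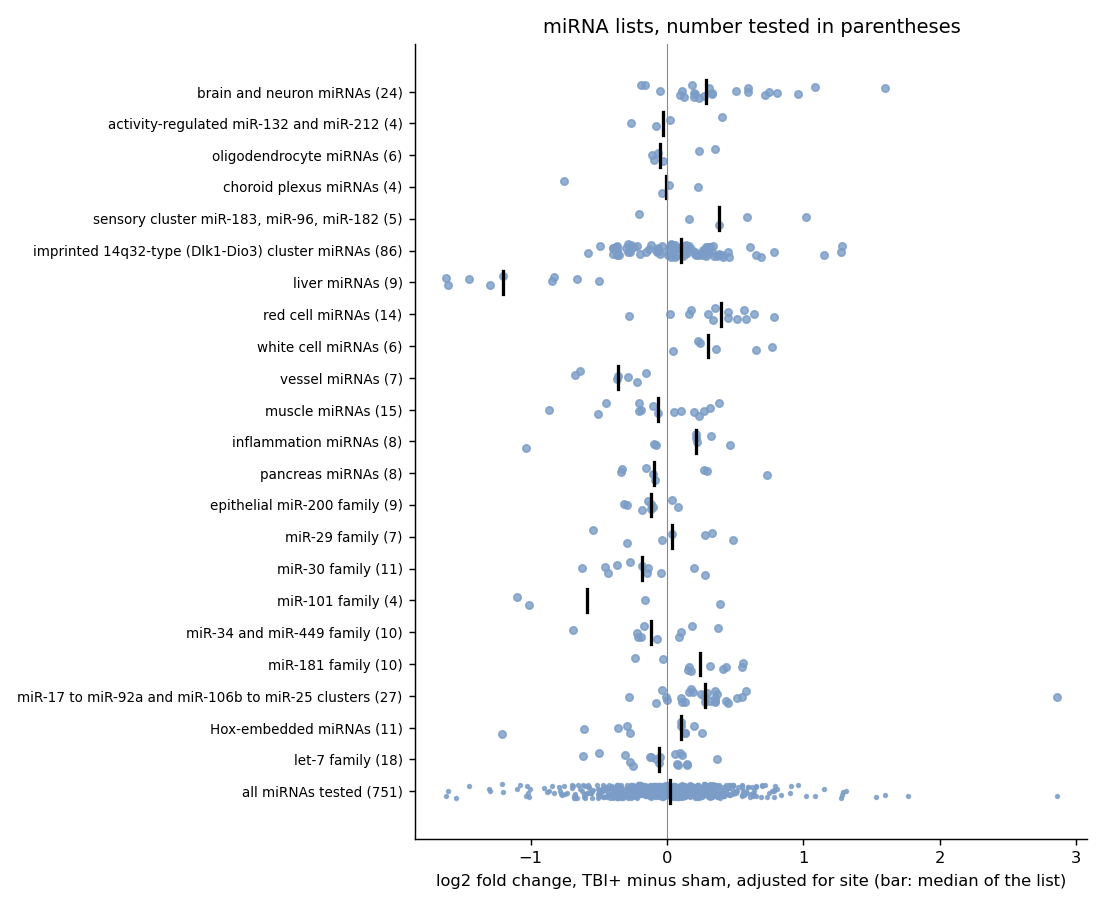
The log2 fold change of TBI+ minus sham (x axis) is plotted for each member of the miRNA lists (one line of points per list), with a bar at the list's median. The liver list has a median of −1.20 and all 9 members below 0, the brain and neuron list a median of 0.29 with 21 of 24 members above 0, and most other lists lie around 0.

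The 9 liver miRNAs were all lower in TBI+ than in sham, and none passed the adjusted threshold in edgeR. 8 of 9 were lower at an unadjusted p below 0.05 (3.6% of all miRNAs were), and the median log2 fold change was −1.20. In TBI− minus sham, which shares the sham rats, the list's median was −1.09. miR-122-5p took 1.76% to 55.1% of the counts in sham (median 11.3%) and 1.07% to 13.3% in TBI+ rats (median 6.08%), a log2 fold change of −1.61 ± 0.51 (SE, adjusted p = 0.225). miR-194-5p, also made in the gut, was 283.1, 1015 and 11426 CPM in sham and 288.1, 426.8 and 852.7 CPM in TBI+ rats (−1.62 ± 0.46, adjusted p = 0.146). miR-192-5p, from the same transcript as a copy of miR-194, was at −1.20 ± 0.39 (adjusted p = 0.225) and miR-802-5p at −0.83 ± 0.25 (adjusted p = 0.190). miR-3591, at −1.45 ± 0.49, lies opposite miR-122 at the same locus, so its value is uncertain. The lower values were those of UEF, where the list's median was −2.24, against −0.59 at Monash and 0.12 at UCLA.

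The effect of TBI+ differed between sites for 6 of these 9, against 16% of all miRNAs, among them miR-194-5p (interaction adjusted p = 0.0203), miR-122-5p (0.0402) and miR-802-5p (0.0428). miR-194-5p was 2046, 3205, 11426 and 1665 CPM in the UEF sham rats and 852.7, 634.0, 596.6 and 288.1 CPM in the UEF TBI+ rats, without overlap (−2.95 ± 0.55, SE, adjusted p = 0.00164). Of all miRNAs, 5.99% did not overlap at UEF and 3.58% passed there. At UCLA miR-194-5p was 283.1, 292.5 and 651.0 CPM in sham and 356.0, 718.7 and 426.8 CPM in TBI+ rats, which overlapped (0.29 ± 0.59). At UEF miR-122-5p (−3.24 ± 0.67, adjusted p = 0.00387), miR-192-5p (−2.24 ± 0.51, adjusted p = 0.00818) and miR-802-5p (−1.67 ± 0.32, adjusted p = 0.00242) fell too. Without UEF sham 3, whose miR-122-5p share was the highest, the list's median over all sites was −0.79 and 7 of 9 members were at an unadjusted p below 0.05. Without the UEF rats the median was −0.16 and 0 were, and without the 9 libraries it was −2.09.

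Blood cell miRNAs did not pass with all rats. Of 14 red cell miRNAs 3 were higher at an unadjusted p below 0.05 (3.99% of all miRNAs were) and 13 of 14 were positive, with a median of 0.40 (0.45 at UEF, −0.37 at Monash, 0.87 at UCLA). In TBI− minus sham, which shares the sham rats, the median of the red cell miRNAs was 0.41. Their summed share of the counts was 7.75% to 40.9% in the sham rats and 29.5% to 45.3% in TBI+ rats. Such a share also depends on the other miRNAs, and miR-122-5p took 55.1% in UEF sham 3. Their summed CPM was 146672 to 503636 in sham (median 232725) and 190433 to 630253 in TBI+ rats (median 393423), which overlapped. miR-486 was at 0.78 ± 0.25 (SE, adjusted p = 0.225), miR-92a-3p at 0.51 ± 0.20 (adjusted p = 0.368) and miR-16-5p at 0.30 ± 0.27. Without Monash sham 2, the sham rat with the highest hemolysis ratio, 9 of 14 were higher at an unadjusted p below 0.05 (49 of all 750 were), and 1 of them, miR-486, passed the adjusted threshold. miR-486 also passed with the Monash rats left out. Without the UEF rats 0 of 14 were at an unadjusted p below 0.05, while 12 of 14 were positive and the median was 0.37. Of 6 white cell miRNAs 2 were higher at an unadjusted p below 0.05, against the same 3.99%, and 6 of 6 were positive (median 0.30), among them miR-223-3p, a neutrophil miRNA, at 0.65 ± 0.27 (adjusted p = 0.417) and miR-150-5p, a lymphocyte miRNA, at 0.24 ± 0.22. The part of these cells in the changes of the 4 called miRNAs was not tested beyond the fit with the hemolysis ratio.

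The effect of TBI+ differed between the sites for 121 of 754 miRNAs (16%, interaction F test over the 3 sites, adjusted p below 0.05). Tested within a site, 27 miRNAs (3.58%) passed at UEF, 8 higher and 19 lower. At Monash, with only 2 TBI+ rats, 24 (3.18%) passed, 22 higher and 2 lower, and at UCLA 80 (10.6%), 25 higher and 55 lower. The 6 miRNAs with the lowest interaction p are shown by their mature sequences from RefSeq (GRCr8), 5′ to 3′, with the seed in capitals.
miR-673-3p: uCCGGGACugaguucugugcac
miR-708-3p: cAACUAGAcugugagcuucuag
miR-337-3p: uUCAGCUCcuauaugaugccuuu
miR-667-3p: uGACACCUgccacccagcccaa
miR-1193-3p: uAGGUCACccguuuuacuaucc
miR-10b-3p: aCAGAUUCgauucuaggggaa
miR-337-3p, miR-667-3p, miR-673-3p and miR-1193-3p lie on chromosome 6 between 134306550 and 134555413, the stretch that also holds miR-434-3p and miR-323-3p. Of the 86 miRNAs listed for the Dlk1-Dio3 cluster, 15 were past the interaction threshold, against 16% of all miRNAs. All 6 are 3p arms, as are 41.9% of all miRNAs with a sequence, and their seeds differ.

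For miR-673-3p the UEF groups lay together, with 63.2, 36.2, 35.6 and 60.0 CPM in sham and 67.4, 38.4, 52.1 and 58.5 CPM in TBI+ rats. At Monash the sham rats had 9.38, 8.77 and 6.50 CPM and the TBI+ rats 55.3 and 41.1 CPM. At UCLA the order was turned, with 74.3, 53.7 and 35.8 CPM in sham and 6.66, 4.70 and 9.00 CPM in TBI+ rats. Its log2 fold change was 0.15 ± 0.27 (SE) at UEF, 2.52 ± 0.37 at Monash and −2.99 ± 0.35 at UCLA (interaction adjusted p = 4.5e-08). The low values are those of the 9 libraries, and the Monash TBI− rats, also among them, had 7.86, 7.70 and 9.52 CPM. The other 5 had the same pattern. miR-708-3p was at −0.11, 2.93 and −3.00 (UEF, Monash, UCLA), miR-337-3p at −0.11, 3.00 and −2.55, miR-667-3p at 0.06, 1.89 and −2.88, miR-1193-3p at 0.02, 2.25 and −2.55, and miR-10b-3p at 0.19, 1.58 and −1.61.

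**Figure D4:**
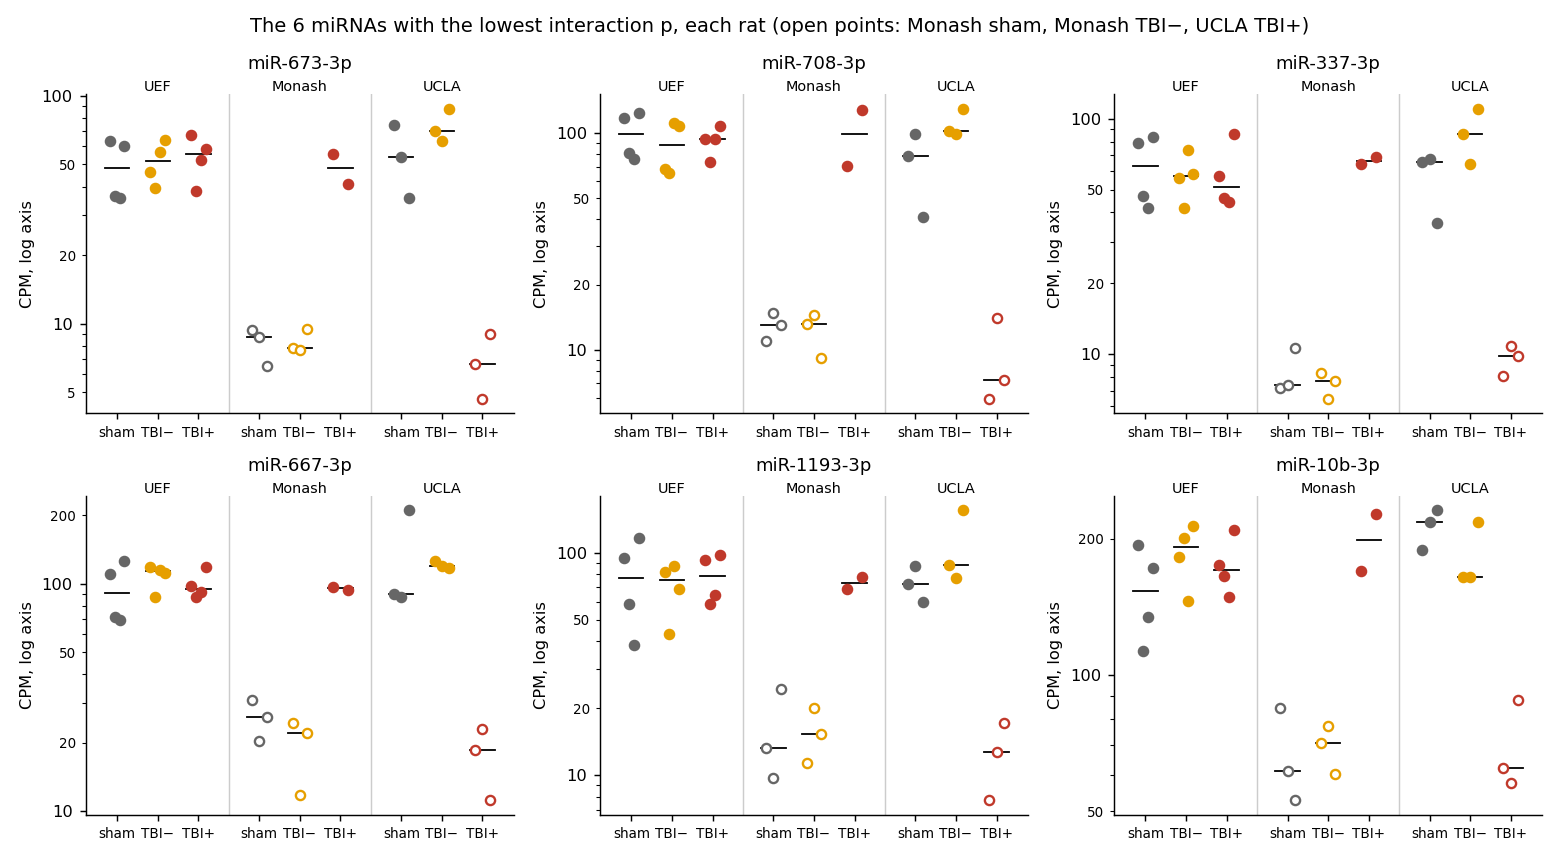
CPM (log axis) of the 6 miRNAs with the lowest interaction p is plotted for each rat by site and condition, with open points for the 9 libraries (Monash sham, Monash TBI− and UCLA TBI+) and filled points for the other 20. In all 6 panels the open points lie below every filled point, for miR-673-3p at 4.70 to 9.52 against 35.6 to 87.8 CPM.

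Of the 121 miRNAs, 71 (58.7%) were higher in TBI+ at Monash and lower at UCLA, and 39 (32.2%) were lower at Monash and higher at UCLA, against 36.1% and 37.1% of all 754. The medians of the 71 were 0.04 (UEF), 1.38 (Monash) and −1.34 (UCLA), and those of the 39 were −0.30, −0.999 and 1.23. The remaining 11 were 4 higher at both sites and 7 lower at both. The 71 had a median GC content of 47.7% and U as the first base in 26.7% (60 with a sequence), the 39 had 39.1% and 62.2% (37 with a sequence), and all 680 miRNAs with a sequence had 47.8% and 36.2%. The median level was 32.5 CPM in the 71, 242.9 CPM in the 39 and 35.6 CPM in all. Without the library labelled UCLA TBI+ 1 the number past the interaction threshold was 68. It fell further with another rat left out, and the range over the rats left out in turn is given below. Over all sites the opposite values offset each other, and none of the 6 passed in TBI+ against sham. Of the 4 called miRNAs, only miR-434-3p was among the 121.

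**Figure D5:**
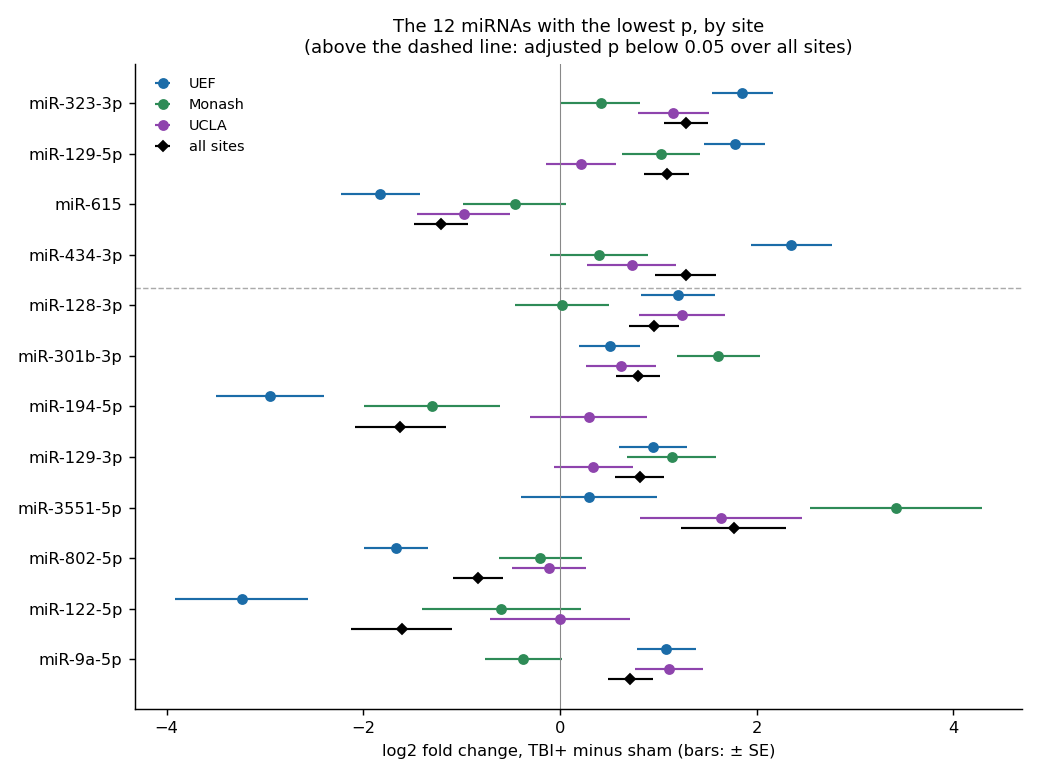
The log2 fold change of TBI+ minus sham (x axis) with its SE is plotted for the 12 miRNAs with the lowest p, at UEF, Monash and UCLA and over all sites (diamond). miR-323-3p, miR-434-3p and miR-129-5p lie right of 0 at every site and miR-615 left of 0 at every site, and all 4 are largest at UEF.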

How the data were processed

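miRNAs of rat plasma drawn 48 h after surgery were measured by small RNA sequencing (75 bp single-end reads) in 29 rats, each the unit of every test, grouped by the labels into site and condition. The authors made libraries with unique molecular identifiers, trimmed reads with cutadapt, used Bowtie for mapping (rat build Rnor_6.0) and miRBase for annotation. Versions of cutadapt and Bowtie are not given in the sources used here. The deposited values are whole-number counts of 754 miRNAs per rat without normalization, and the sources used here do not state whether reads of the same molecule were merged. 7 names join several miRNAs that share a count. 1 further TBI+ rat that the study left out after sequencing was not analysed here.

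The counts of all 29 rats were fitted in edgeR 4.0.16 (R 4.3.3 and limma 3.58.1) with filterByExpr (minimum count 10), TMM normalization, a model of site and condition, the quasi-likelihood F test, and p-values adjusted by Benjamini-Hochberg over 751 miRNAs (threshold 0.05). Effects at each site and their difference (interaction) came from a model with a mean for each site and condition, over 754 miRNAs, which share 1 estimate of the spread. The biological coefficient of variation was 0.475, and counts of the 4 called miRNAs ranged from 24 to 2716 per rat, so low miRNAs were measured with less precision. Counting error alone is smaller than this common spread at these counts. That need not hold within each group of rats or for miRNAs with lower counts. The code was tested on simulated data.

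Alternatives were DESeq2 1.42.0, other normalizations (RLE, upper quartile, miR-28-3p), other count filters, no site term, the hemolysis ratio as a covariate, replicate numbers as a block, each site left out, the 19 TBI+ and sham rats alone and each rat left out. Fits with a term for the 9 libraries or without them, and counts of the lists under alternatives, were added after the data were seen. Totals, detected miRNAs and the ratio were compared by exact permutation within sites, two-sided. Other steps ran in Python 3.11.15 with scipy 1.17.1, pandas 2.3.3, numpy 2.4.6 and matplotlib 3.10.9.

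Named miRNAs are those past the threshold, the next by p up to 12 in all, the study's candidates, the 6 with the lowest interaction p, up to 4 members of each list, and the 3 with the lowest p in TBI+ against TBI−. miRNAs that a count of 8 or fewer refers to and miR-503-3p and miR-455-5p were named after their values were seen. The comparison and the lists were chosen with earlier results of these data known, so list counts are descriptions. Replicate numbers did not pair the rats. Mature sequences and coordinates came from RefSeq (GRCr8), which is not the build the authors mapped to.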

Additional observations from a re-analysis of the deposited data

Results flagged for a closer look

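Of the 132 groups of 4 to 10 rats examined, 12 had 1 rat far from the rest by Dixon's criterion, which chance alone gives for about 1 in 20 groups. Among all sham rats, UEF sham 3 had the highest total of 5223469 counts (next 3015847), its miR-28-3p was above that of every other sham rat at 1462 CPM (next 635.2), and its miR-212-3p below at 11.5 CPM (next 18.2). Monash sham 2 had the highest log2 ratio of miR-451-5p to miR-23a-3p among sham rats, −1.33 (next −2.55), and the highest miR-451-5p, 4532 CPM (next 1426). UEF sham 4 had the lowest miR-128-3p of its group, 2181 CPM (next 3180), and UEF sham 2 the lowest miR-3551-5p, 6.51 CPM (next 9.04). Monash TBI+ 2 had the highest miR-3551-5p of the TBI+ rats, 206.9 CPM (next 34.0), and Monash TBI+ 1 the highest miR-582-3p, 805.2 CPM (next 203.6). Among UEF TBI+ rats, UEF TBI+ 1 had the highest miR-802-5p, 70.7 CPM (next 42.6), UEF TBI+ 2 the highest miR-132-3p, 80.5 CPM (next 46.2), and UEF TBI+ 4 the highest miR-675-3p, 26.3 CPM (next 14.6).

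The Monash sham and UCLA TBI+ rats are among the 9 libraries, so at these sites condition and this feature cannot be told apart. With that limit, the fold change of TBI+ against sham differed between the 3 sites, by the interaction test, for 121 miRNAs. Among those named, the adjusted p was 0.0494 for miR-434-3p, 0.0203 for miR-194-5p, 0.0428 for miR-802-5p, 0.0402 for miR-122-5p, 4.5e-08 each for miR-673-3p, miR-708-3p and miR-337-3p, 7.1e-07 for miR-667-3p, 1.5e-05 for miR-1193-3p and 2.0e-05 for miR-10b-3p.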

How the results depend on the processing

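The number of miRNAs that differ between TBI+ and sham was 4 and moved to 12 with DESeq2, 0 scaled to miR-28-3p, 0 without UEF, 8 without Monash, 8 without UCLA, 2 with the 19 TBI+ and sham rats alone, and 1 to 7 with 1 rat left out. Without Monash miR-129-5p did not pass (adjusted p = 0.0509), and without UCLA miR-615 did not (0.105). The number that differ between TBI− and sham was 1 and moved to 20 with DESeq2, 3 with upper-quartile normalization, 2 with the hemolysis ratio, 3 with a term for the 9 libraries, 0 scaled to miR-28-3p, without UEF, without UCLA or without the 9 libraries, and 1 to 5 with 1 rat left out. The 121 miRNAs with a difference between sites were 60 to 138 with 1 rat left out. For total miRNA counts the difference of 140831 was −43937 to 427705 with 1 rat left out, and the lowest value, without UCLA TBI+ 1, had exact p = 0.924. The difference in detected miRNAs was 3.00 to 14.8. The ratio of miR-451-5p to miR-23a-3p differed by 0.604 with labels permuted over all 19 rats (permutation p = 0.0476), and by 0.50 to 0.77 with 1 rat left out. The cause of these moves was not tested, except that fewer rats enter where rats are left out.

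The log2 fold change of miR-23a-3p, TBI+ against sham, was 0.01 and turned negative with DESeq2 (−0.0255), RLE (−0.0255), upper quartile (−0.0021), 10 counts in every rat (−0.0847), the ratio (−0.0542), without UCLA (−0.0873), the 19 rats alone (−0.0269), a term for the 9 libraries (−0.0534), without the 9 (−0.250), and without any 1 of UEF sham 4, UEF TBI+ 2, Monash sham 1, UCLA sham 2, UCLA TBI+ 1 and UCLA TBI+ 3 (range with 1 rat left out −0.0810 to 0.145). miR-451-5p was −0.0540 with the ratio, miR-28-3p 0.183 without UEF and −0.317 to 0.0323 with 1 rat left out (positive without UEF sham 3), miR-212-3p 0.0060 without UCLA and 0.0033 without the 9 libraries, miR-183-5p −0.0136 without the 9, and miR-183-3p −0.0278 (without UEF TBI+ 4) to 0.569 with 1 rat left out. The ratio is made from miR-451-5p and miR-23a-3p themselves. A model that holds it makes their fold changes nearly equal, so their values there are no check on them.

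Replicate numbers did not pair the rats: the correlation of rats with the same number within a site was −0.12 to 0.40. With the replicate block 3 miRNAs passed, and the fold change of miR-434-3p, TBI+ against sham, was 1.295 (adjusted p = 0.0789).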

Other observations

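Further miRNA lists of TBI+ against sham held 0 called miRNAs, and their medians of the log2 fold change are given beside 0.02 over all 751. Vessel miRNAs (miR-126, miR-143 and miR-145, 7 members) were all negative, with a median of −0.36 and 0 below an unadjusted p of 0.05. Without UEF sham 3 the median was −0.11, with 6 of 7 negative, and without the 9 libraries it was −0.98. miR-143-3p, a smooth muscle miRNA, was at −0.64 ± 0.47 (SE), and miR-126a-3p, an endothelial miRNA, at −0.22 ± 0.33. Of 15 muscle miRNAs 7 were positive, with a median of −0.06, and miR-1-3p, which took 0.00454% to 0.578% of the counts in sham and 0.00659% to 0.132% in TBI+ rats, was at 0.05 ± 0.91. Inflammation miRNAs (8 members) had a median of 0.21, which was −0.03 without the UEF rats and −0.04 without the 9 libraries. Among them miR-21-5p was at −0.08 ± 0.35 over all sites but at −0.93 at UEF, −1.01 at Monash and 1.42 at UCLA, where it passed (adjusted p = 0.0386), and its interaction adjusted p was 0.0106. Of all miRNAs, 10.6% passed at UCLA and 16% were past the interaction threshold. The Monash sham and UCLA TBI+ rats are among the 9 libraries, so condition and this feature cannot be told apart there. miR-146a-5p, a repressor of innate immune signalling, was at 0.22 ± 0.23, and miR-155-5p at −0.10 ± 0.23.

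Pancreas miRNAs (8 members) had a median of −0.09, with miR-375-3p at −0.09 ± 0.29, and the epithelial miR-200 family (9 members) a median of −0.12, with miR-200c-3p at −0.14 ± 0.37. The medians were 0.04 for the miR-29 family (7 members), −0.18 for the miR-30 family (11), −0.12 for the miR-34 and miR-449 family (10), 0.24 for the miR-181 family (10) and −0.06 for the let-7 family (18). Without UEF sham 3 the medians were 0.26 for the miR-29, 0.02 for the miR-30 and 0.08 for the let-7 family, and without the 9 libraries −0.28, −0.86 and −0.38, with a median of −0.10 over all miRNAs. In the clusters from miR-17 to miR-92a and from miR-106b to miR-25, 23 of 27 members were positive, the median was 0.28, and 4 were higher at an unadjusted p below 0.05. Without Monash sham 2 it was 11, and 1 passed the adjusted threshold, miR-18a-3p. The miR-25 and miR-92 members of these clusters are also on the red cell list, so the 2 lists are not separate. The miR-101 family (4 members) had a median of −0.59 (−0.25 without UEF sham 3 and 0.41 without the UEF rats) and 2 lower at an unadjusted p below 0.05. Its member miR-101b-3p was at −1.10 ± 0.49 over all sites, at −2.72 ± 0.47 at UEF, where it fell (adjusted p = 0.000782), and at 1.28 ± 0.52 at UCLA. Of all miRNAs, 3.58% passed at UEF, and the UCLA TBI+ rats are among the 9 libraries. The interaction adjusted p of miR-101b-3p was 0.000997, and 16% of all miRNAs were past that threshold.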
